A study of Homo sapiens with 16 samples.

Results

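Removal of TFE3 from melanoma cells that already carried an edited MITF gene was followed at the level of mRNA in clone 3 of a double knockout (DKO). The comparison set the 3 RNA-seq libraries labelled SKMEL28, MITFKO, TFE3KO, clone 3 against the 3 libraries labelled SKMEL28, MITFKO, which are 6 of the 16 libraries of the study. SKMEL28 is an established human melanoma line with an activating BRAF mutation. The MITFKO libraries came from SKMEL28 cells in which MITF had been edited, and clone 3 carries that edit as well as a TFE3 edit made with CRISPR-Cas9, so MITF is edited in both groups. Clone 3 is 1 clone, whose own traits cannot be told apart from the TFE3 edit, and its replicates were separate flasks, so p-values measure the spread between cultures and not between independently edited clones. SKMEL28 cells grew in RPMI with serum, and the medium was renewed 24 hours before harvest. A second DKO clone (clone 13, 3 libraries), 1 library of SKMEL28 wild type, and 3 libraries each of A375 wild type and A375 TFE3KO, from another BRAF-mutant melanoma line grown in DMEM, serve as comparisons.

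TFE3 and MITF are related helix-loop-helix leucine zipper factors of the MiT/TFE family, which also holds TFEB and TFEC. When nutrients are plentiful, the kinase complex mTORC1 phosphorylates TFE3 at the lysosome surface with the help of folliculin and the Rag GTPases, and keeps it in the cytoplasm. When amino acids are short, TFE3 enters the nucleus, binds E-box sequences (CACGTG) at lysosome and autophagy genes, and can raise ATF4, the factor that switches on amino acid supply in the integrated stress response. In melanocytes MITF drives pigment genes and survival, and melanoma cells with little MITF are known for a dedifferentiated, invasive state.

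Total counts ran from 18891915 to 20445904 in the MITFKO libraries and from 17320855 to 18228164 in clone 3, with between 15905 and 16665 genes detected in each. Levels are given as CPM, counts relative to library size after TMM scaling, and changes as log2 fold changes of clone 3 against MITFKO with their standard errors (SE). Adjusted p-values come from edgeR's quasi-likelihood F-test with Benjamini-Hochberg adjustment over 14605 genes, and calls were made under an adjusted p of 0.05. Melanoma markers had summed levels of 6020 to 6236 CPM in MITFKO and 6791 to 7571 CPM in clone 3, with 6 of 12 higher and 2 lower. The keratinocyte markers tested held 2 higher and 0 lower of 5, the fibroblast markers 3 and 0 of 5, the leukocyte markers 1 and 0 of 3, and the endothelial markers 1 and 1 of 5. Their summed levels were 40.1 to 46.5 CPM against 58.3 to 65.5 for keratinocytes, 50.8 to 60.7 against 100.1 to 108.1 for fibroblasts, 22.2 to 23.3 against 21.2 to 24.3 for leukocytes, and 7.66 to 8.85 against 14.7 to 15.5 for endothelium. The genes DSG3, DSC3, PKP1, DPT, TCF21, CD3E, CD3D, CD2, FCGR3A, TYROBP, CDH5 and EMCN were at 0 in all 6 libraries.

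A total of 5240 genes, 35.9% of those tested, were called between clone 3 and MITFKO. The split was close to even, with 2665 higher (18.2%) and 2575 lower (17.6%), and the median log2 fold change over all genes tested was -0.01. Most calls were small: the median size among called genes was 0.42 on the log2 scale, 203 genes at least doubled, 346 fell to 50% or less, and 152 passed 4-fold in either direction. The 3 libraries of each group did not overlap for 7443 genes (51.0%), so separation of the groups was common and each gene list is read against these shares. The replicates of clone 3 were a little less alike than those of MITFKO, with replicate 2 farthest from its group.

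TFE3 itself was counted at 70.3, 72.3 and 77.5 CPM in the MITFKO libraries and at 8.13, 8.54 and 11.4 CPM in clone 3. The groups were far apart, and the mean of clone 3 (9.37 ± 1.8 CPM, SD, n = 3) was 7.83-fold below that of MITFKO (73.4 ± 3.7 CPM). Clone 13 stood between them at 45.7 CPM on average and the wild-type library at 43.7 CPM, and clone 3 was taken up here because it is the clone with the deeper loss of this mRNA. An mRNA level does not show whether protein is made from it.

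MITF mRNA was measured at 527, 499 and 468 CPM in MITFKO and at 811, 778 and 753 CPM in clone 3. All 3 clone 3 libraries lay above all 3 MITFKO libraries, a rise of 0.65 (SE 0.06, adjusted p = 3.7e-08). The wild-type library had 524 CPM, inside the range of the libraries labelled MITFKO, so the amount of MITF mRNA does not check the MITF edit. TFEB, the lysosomal relative of TFE3, was at 1.58 ± 0.25 CPM in MITFKO and 1.31 ± 0.11 CPM in clone 3, and its difference of -0.27 (SE 0.38, adjusted p = 0.63) did not pass the test. TFEC was counted in too few reads to be tested.

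**Figure D1:**
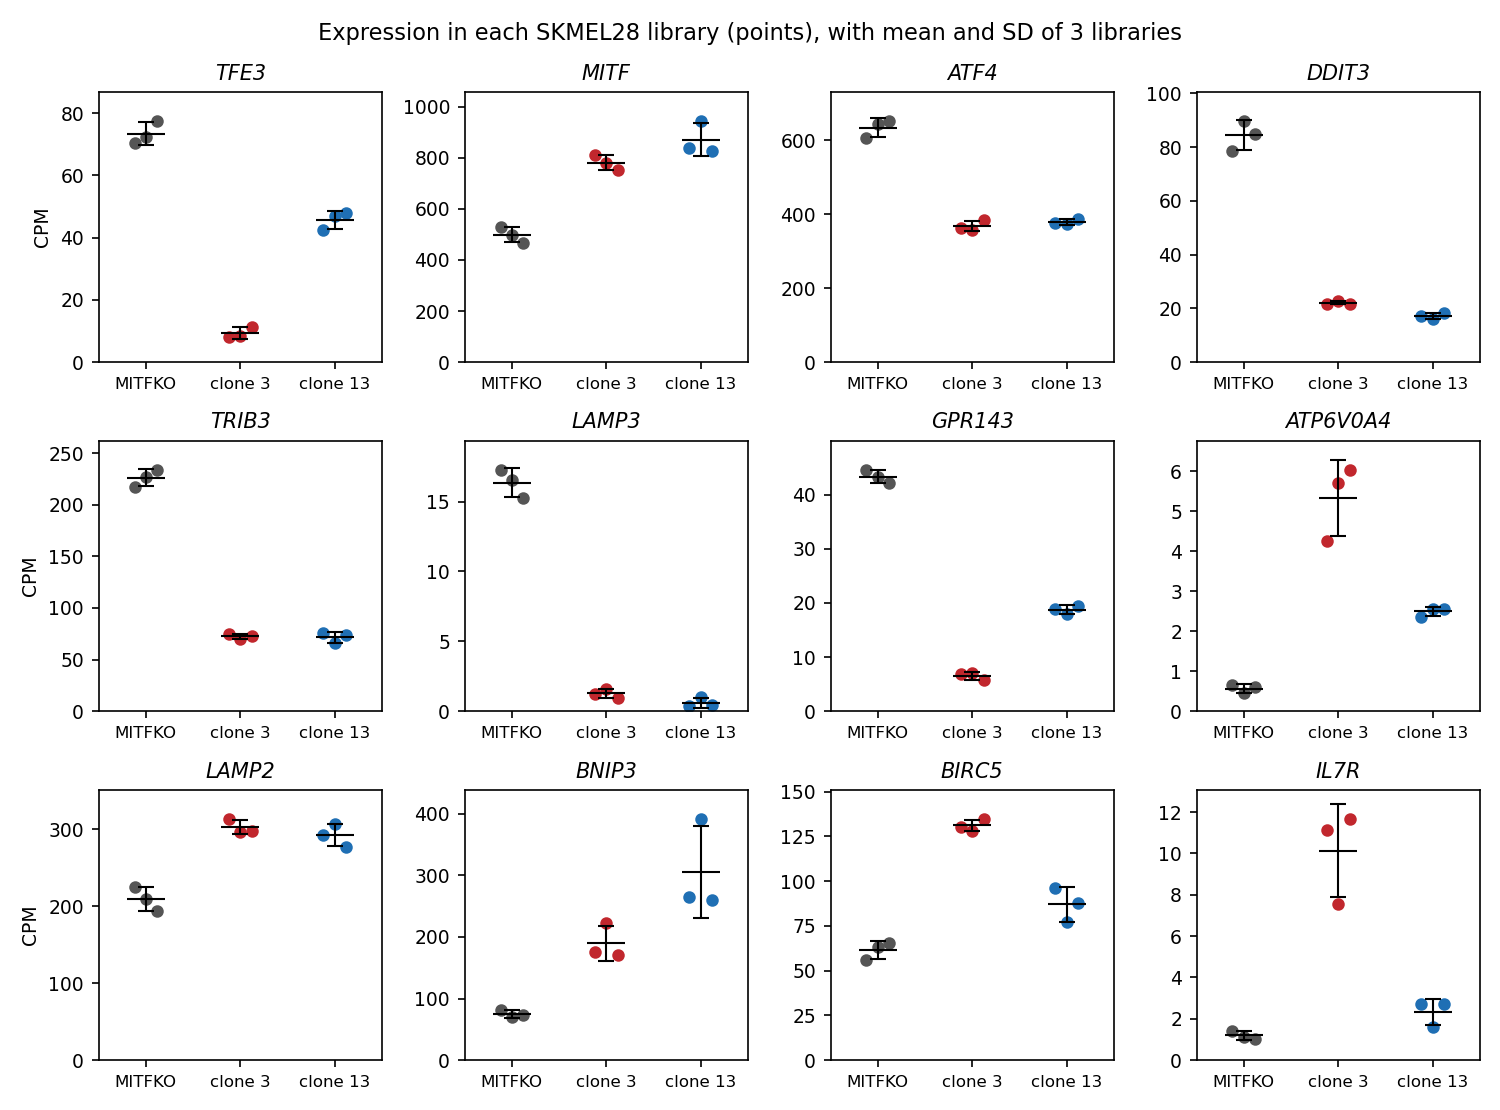
Levels of 12 genes in the MITFKO, clone 3 and clone 13 libraries of SKMEL28. The vertical axes give CPM on linear scales that start at 0, points are libraries, and bars show the mean and SD of 3 libraries. TFE3, ATF4, DDIT3, TRIB3, LAMP3 and GPR143 lie lower in every clone 3 library than in every MITFKO library, and the other 6 genes lie higher.

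The largest falls were in genes of varied function. LAMP3, a lysosome-associated membrane protein also known from dendritic cells, was at 17.3, 16.5 and 15.2 CPM in MITFKO and at 1.23, 1.61 and 0.98 CPM in clone 3. It fell by 3.67 (SE 0.26, adjusted p = 4.1e-10), to a level near the 0.84 CPM of the wild-type library. GPR143, the melanosomal receptor whose loss causes ocular albinism, went from 44.6, 43.2 and 42.2 CPM to 6.84, 6.99 and 5.69 CPM. Its fall of 2.73 (SE 0.10, adjusted p = 2.7e-14) left no overlap, and the wild-type library held 109 CPM.

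GPR84, a receptor for medium-chain fatty acids, fell by 3.08 (SE 0.19, adjusted p = 2.1e-10), from 31.1 ± 3.3 to 3.67 ± 1.1 CPM. RDH5, a retinol dehydrogenase, fell by 3.24 (SE 0.29, adjusted p = 2.2e-08) and MB, the oxygen-binding protein myoglobin, by 2.92 (SE 0.32, adjusted p = 3.9e-07). CST7, an inhibitor of lysosomal cathepsins, fell by 2.63 (SE 0.18, adjusted p = 4.2e-10). C4orf3 fell by 2.89 and PRR9 by 2.89, with adjusted p-values of 6.9e-09 and 1.2e-09.

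Among the largest rises were HAPLN1, which links hyaluronan to proteoglycans, and ATP6V0A4, an a-subunit of the V-ATPase known from acid-secreting kidney cells. HAPLN1 was at 0.51, 0.50 and 0.95 CPM in MITFKO and at 7.07, 6.49 and 4.83 CPM in clone 3, a rise of 3.22 (SE 0.34, adjusted p = 1.8e-07). ATP6V0A4 was at 0.65, 0.45 and 0.60 CPM and then at 4.26, 5.71 and 6.04 CPM, a rise of 3.22 (SE 0.32, adjusted p = 8.4e-08). Both genes were close to silent before and low but clearly present after.

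IL7R, the interleukin 7 receptor chain, rose by 3.07 (SE 0.28, adjusted p = 1.8e-08), from 1.20 ± 0.21 to 10.1 ± 2.3 CPM. CRYAB, a small heat-shock chaperone, was measured at 11.7, 12.3 and 11.9 CPM in MITFKO and at 52.4, 46.5 and 58.2 CPM in clone 3. It rose by 2.13 (SE 0.12, adjusted p = 2.0e-11), and in clone 13 its mean was 14.9 CPM. SORBS2, an adaptor of actin structures, rose by 2.41, SCRG1 by 2.25, PRRG4 by 2.23, LYPD1 by 2.16, the matricellular protein CCN1 by 2.15 and the oxysterol-binding protein OSBPL10 by 2.10.

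The ATF4 arm of the integrated stress response fell almost together. Of 18 tested members of a list of ATF4 stress factors, 16 were lower in clone 3 and 0 higher, against 17.6% and 18.2% of all genes, and the list's median was -0.91. The libraries of the groups did not overlap for any of the 18. ATF4, the factor itself, was at 605, 645 and 653 CPM in MITFKO and at 363, 357 and 384 CPM in clone 3. That is a fall of 0.79 (SE 0.05), and the wild-type library, at 153 CPM, lay lower still.

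Several stress genes fell further than ATF4 mRNA did. DDIT3, which encodes the stress factor CHOP, was counted at 78.8, 89.8 and 84.8 CPM in MITFKO and at 21.7, 22.8 and 21.8 CPM in clone 3, a fall of 1.93 (SE 0.09, adjusted p = 2.9e-13). TRIB3, a pseudokinase that dampens ATF4 signalling, was at 218, 227 and 234 CPM and then at 74.5, 69.9 and 73.1 CPM, a fall of 1.64 (SE 0.06, adjusted p = 3.2e-14). GDF15, a secreted stress hormone, was at 41.7, 44.9 and 44.4 CPM and then at 8.02, 9.15 and 7.99 CPM, a fall of 2.38 (SE 0.13, adjusted p = 9.0e-12). The spread between flasks was small beside each of these steps.

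PPP1R15A, the phosphatase subunit GADD34 that reverses the stress block on translation, fell by 1.10 (SE 0.06, adjusted p = 2.1e-11), from 214 ± 16 to 100.1 ± 4.0 CPM. NUPR1 fell by 1.95 (SE 0.22), the hormone ADM2 by 1.84 (SE 0.14) and JDP2 by 1.14 (SE 0.29). CEBPB, a partner of ATF4 on DNA, fell by 1.00 (SE 0.06), and SESN2, the leucine sensor that restrains mTORC1, by 0.97 (SE 0.09). ATF3 fell by 0.85 (SE 0.16) and CHAC1, which degrades glutathione, by 0.77 (SE 0.11). In the wild-type library DDIT3 was at 16.3 CPM, TRIB3 at 23.4, GDF15 at 0.48 and ADM2 at 0.20, all below the clone 3 mean.

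Of 18 tested enzymes that make amino acids and one-carbon units, 9 were lower, 1 was higher and 8 did not pass the test, with a median of -0.41. ASNS, asparagine synthetase, was at 13.6, 14.8 and 15.6 CPM in MITFKO and at 2.75, 4.66 and 3.91 CPM in clone 3, a fall of 1.96 (SE 0.22, adjusted p = 4.0e-07). ALDH1L2, a mitochondrial folate enzyme, fell by 1.504 (SE 0.09, adjusted p = 3.8e-11), CTH, which makes cysteine, by 1.31 (SE 0.14, adjusted p = 1.5e-07), and SHMT2, the mitochondrial serine hydroxymethyltransferase, by 0.52 (SE 0.05, adjusted p = 1.3e-07). PSAT1, MTHFD2, GOT1, PHGDH and PSPH were lower too, and the exception was ALDH18A1 of proline synthesis, which rose.

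Amino acid transporters split in direction, with 6 lower and 4 higher of 17 and a median of 0.04. SLC7A11, the cystine importer, was at 475, 463 and 423 CPM and then at 262, 220 and 273 CPM, a fall of 0.85 (SE 0.12, adjusted p = 0.00027). SLC7A5, the large neutral transporter LAT1, rose by 0.41 (SE 0.05, adjusted p = 3.3e-06), from 979 ± 10 CPM, as did its heavy chain SLC3A2, and SLC7A6 and SLC7A8 were also higher. Cytosolic tRNA synthetases, which charge tRNAs, split as well, with 7 lower and 4 higher of 19 and a median of -0.11. GARS1 fell by 0.58 (SE 0.05, adjusted p = 1.1e-08) and SARS1 by 0.30 (SE 0.05, adjusted p = 0.00011).

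The promoters of these genes were searched for the composite site bound by ATF4 with a C/EBP partner, spelled TGATGNAAN and searched on both strands, in RefSeq windows of 250 bases before to 50 bases after the gene start (GRCh38.p14). The site was in 3.67% of all 27305 promoters and in 1.77% of those of the 11169 tested genes found in the table. It was present in 2 of 13 promoters of the lower ATF4 stress factors, in 2 of 6 of the lower amino acid enzymes and in 3 of 6 of the lower tRNA synthetases. Amino acid transporters held it in 1 of 4 lower and 1 of 4 higher promoters, and over all genes it was in 1.91% of lower and 1.80% of higher ones. The 7 promoters of the stress factors, enzymes and synthetases are printed here because their genes were lower, each with 15 bases on either side of the site, written along the gene's strand, and the capitals mark the site. A match is a description of letters and does not show binding.
ASNS, chr7:97872453-97872491, minus strand: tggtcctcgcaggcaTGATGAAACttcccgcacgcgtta
CHAC1, chr15:40953246-40953284, plus strand: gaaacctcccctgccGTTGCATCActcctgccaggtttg
ATF3, chr1:212565201-212565239, plus strand: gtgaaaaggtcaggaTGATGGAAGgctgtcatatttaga
GOT1, chr10:99430800-99430838, minus strand: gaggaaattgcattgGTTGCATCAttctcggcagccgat
AARS1, chr16:70289671-70289709, minus strand: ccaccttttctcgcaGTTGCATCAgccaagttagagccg
CARS1, chr11:3057403-3057441, minus strand: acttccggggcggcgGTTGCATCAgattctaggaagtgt
MARS1, chr12:57488048-57488086, plus strand: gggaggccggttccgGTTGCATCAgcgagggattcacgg

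The sites started 68 bases before the gene start in ASNS and 210 before it in CHAC1, whereas those of CARS1 and MARS1 lay within 5 bases of it. The same letters GTTGCATCA, the reverse strand of the site, stood in CHAC1, GOT1, AARS1, CARS1 and MARS1. Changes of these genes ran from the 1.96 fall of ASNS to much smaller ones: GOT1 fell by 0.50, CARS1 by 0.38, AARS1 by 0.34 and MARS1 by 0.30.

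Chaperones of the secretory pathway were mostly higher. Of 27 chaperones and unfolded-protein genes of the endoplasmic reticulum (ER), 15 were higher and 4 lower, with a median of 0.27. CRELD2, a secretory-pathway chaperone, was at 67.7, 66.4 and 67.3 CPM and then at 104, 119 and 102 CPM, a rise of 0.69 (SE 0.07, adjusted p = 8.7e-08). PDIA4, a disulfide isomerase, rose by 0.47 (SE 0.05, adjusted p = 5.0e-07). The 4 lower members were ERN1, which encodes the stress sensor IRE1 and fell by 1.09 (SE 0.09, adjusted p = 4.1e-09), HERPUD1, a degradation factor that fell by 0.81 (SE 0.06), DNAJB9 and XBP1. Targets of p53 were lower in 8 of 18 and higher in 2, among them GDF15 and the cell-cycle inhibitor CDKN1A, which fell by 0.85 (SE 0.14, adjusted p = 4.0e-05). Targets of NRF2 held 6 lower and 5 higher of 23, and the 5 became 3 when MITFKO replicate 1, MITFKO replicate 3 or clone 3 replicate 1 was left out. HMOX1, which breaks down haem, was at 507, 542 and 562 CPM and then at 249, 245 and 261 CPM, a fall of 1.09 (SE 0.06, adjusted p = 7.7e-12).

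Lysosome genes, the textbook targets of TFE3, were mostly not called or modestly higher in clone 3. Of 22 tested subunits of the V-ATPase, the pump that acidifies lysosomes, 11 were higher and 0 lower, with a median of 0.18. The count became 7 without MITFKO replicate 2. Apart from ATP6V0A4 the rises were small: ATP6V0C was at 281, 279 and 297 CPM and then at 380, 394 and 387 CPM, a rise of 0.44 (SE 0.05, adjusted p = 9.2e-07). ATP6V0B went from 130, 151 and 161 CPM to 209.7, 221.8 and 200.003 CPM, a rise of 0.51 (SE 0.07, adjusted p = 8.8e-06).

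Lysosomal hydrolases were higher in 16 and lower in 6 of 39, with a median of 0.11. SMPD1, acid sphingomyelinase, was at 81.9, 82.0 and 91.3 CPM and then at 139, 138 and 132 CPM, a rise of 0.68 (SE 0.07, adjusted p = 1.4e-07). GLA, alpha-galactosidase, rose by 0.49 (SE 0.07). IDUA, alpha-iduronidase, fell by 0.79 (SE 0.18, adjusted p = 0.0017), and MAN2B1, GAA, CTSB and TPP1 were also lower.

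Lysosomal membrane proteins were higher in 10 and lower in 3 of 29, with a median of 0.04. LAMP2, a major lysosomal membrane glycoprotein, was at 225, 210 and 194 CPM and then at 314, 297 and 299 CPM, a rise of 0.53 (SE 0.06). SCARB2, a lysosomal membrane receptor, rose by 0.48 (SE 0.05, adjusted p = 2.3e-07), and LAPTM4B by 0.48 (SE 0.05, adjusted p = 2.9e-07). The 3 that fell were LAMP3, the cholesterol exporter NPC1 (by 0.36, SE 0.06) and TMEM192.

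The E-box CACGTG was in 9.99% of the promoters of tested genes and its longer CLEAR form TCACGTGA, which contains the E-box, in 1.86%. Among V-ATPase subunits that were higher, 3 of 9 promoters held the E-box and 2 of 9 the CLEAR form. In the folliculin and Rag pathway the E-box was in 3 of 7 lower and 2 of 5 higher promoters. Higher hydrolases held the E-box in 3 of 9 and the CLEAR form in 2 of 9, and lower hydrolases held both forms in 1 of 4. In higher lysosomal membrane proteins the counts were 2 of 7 and 1 of 7, and in lower autophagy genes 1 of 13 and 0 of 13. Lower membrane proteins, with 2 promoters, and higher autophagy genes, with 5, held neither form. Over all genes the CLEAR form was in 2.55% of the promoters of lower genes and 1.34% of those of higher ones. The 3 V-ATPase promoters are printed because their genes rose in cells with less TFE3 mRNA, and those of the other lists are not. They again have 15 bases on either side and the E-box in capitals.
ATP6V0B, chr1:43974888-43974941, plus strand: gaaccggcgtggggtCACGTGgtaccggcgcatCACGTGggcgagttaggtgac
ATP6V0D1, chr16:67481196-67481231, minus strand: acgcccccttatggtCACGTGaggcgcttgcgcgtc
ATP6V1G1, chr9:114587696-114587731, plus strand: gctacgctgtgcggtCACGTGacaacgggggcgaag

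ATP6V0B held 2 E-boxes, and in all 3 genes the first one began between 57 and 59 bases before the gene start. ATP6V0D1 rose by 0.27 and ATP6V1G1 by 0.18.

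Of 38 autophagy genes tested, 16 were lower and 5 higher, with a median of -0.17. The lower count was 8 without MITFKO replicate 2 and 9 without clone 3 replicate 3, and the 5 higher ones (ATG5, VMP1, ATG2B, GABARAPL2 and GABARAP) became 3 without MITFKO replicate 2, MITFKO replicate 3 or clone 3 replicate 1. WIPI1, which binds the forming autophagosome, was at 72.8, 77.1 and 81.1 CPM and then at 42.9, 45.3 and 45.0 CPM, a fall of 0.79 (SE 0.08, adjusted p = 6.7e-08). ATG14, a subunit of the lipid kinase that starts autophagosomes, fell by 0.72 (SE 0.10, adjusted p = 4.9e-06), and the protease ATG4D by 0.54 (SE 0.09, adjusted p = 5.0e-05). The cargo receptors SQSTM1, OPTN, NBR1 and CALCOCO2 were among the lower genes.

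In the pathway that holds TFE3 in the cytoplasm, 8 of 32 genes were lower and 6 higher, with a median of -0.02. Over all genes 17.6% were lower and 18.2% higher, so the higher count was near the general share. The 6 higher were RRAGA, LAMTOR4, LAMTOR5, LAMTOR1, LAMTOR2 and RHEB, of which 3 were called without MITFKO replicate 2. LAMTOR5, a subunit of the scaffold that anchors the Rag GTPases, rose by 0.40 (SE 0.07, adjusted p = 7.0e-05). CASTOR1, an arginine sensor upstream of mTORC1, fell by 0.77 (SE 0.12, adjusted p = 3.9e-05), and RRAGC, TSC1, FNIP1 and DDIT4 were lower.

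**Figure D2:**
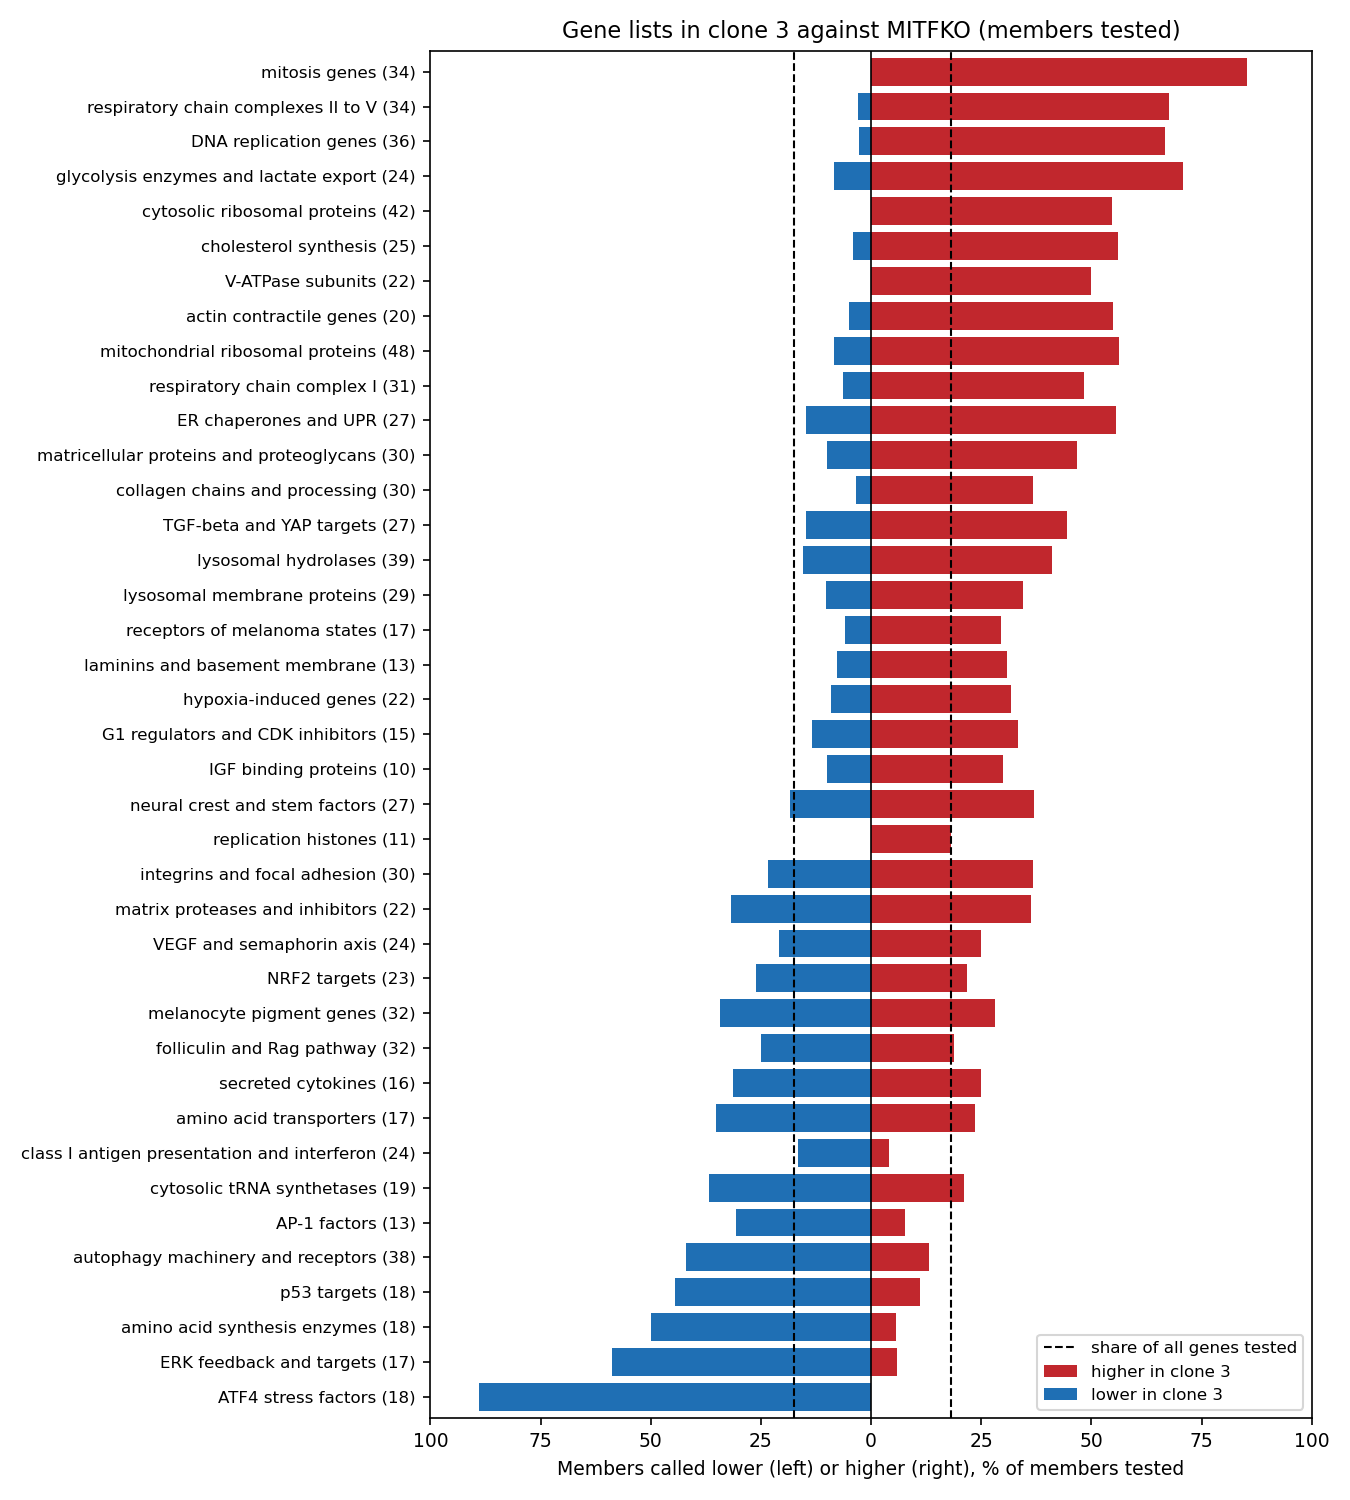
Share of the tested members of each gene list with at least 10 tested members that was called higher (right) or lower (left) in clone 3 against MITFKO, in percent, with the number tested in brackets. Dashed lines give the shares of all genes tested, 18.2% higher and 17.6% lower. ATF4 stress factors, 16 of 18 lower, stand at the bottom and mitosis genes, 29 of 34 higher, at the top.

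Pigment genes changed without a common direction. Of 32 tested, 11 were lower and 9 higher, with a median of -0.04. Beside GPR143, the melanosome transport protein MLPH was at 30.7, 25.6 and 29.2 CPM and then at 13.3, 10.4 and 14.5 CPM, a fall of 1.17 (SE 0.12). QPCT, a glutaminyl cyclase, fell by 0.81 (SE 0.08, adjusted p = 1.4e-07) and OCA2, a melanosomal transporter, by 1.04 (SE 0.18). S100B, the melanoma serum marker, was at 523, 527 and 533 CPM and then at 918, 930 and 893 CPM, a rise of 0.79 (SE 0.06, adjusted p = 5.3e-10), and the wild-type library held 941 CPM. EDNRB, SLC24A5, TYR and SOX10 were also higher.

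Neural crest and stem factors held 10 higher and 5 lower of 27, with a median of 0.25. The higher count was 5 without MITFKO replicate 2 and 6 without clone 3 replicate 1, and the lower count 3 without MITFKO replicate 3. SOX2, a stem cell factor, was at 9.68, 6.13 and 9.16 CPM and then at 11.9, 15.9 and 13.3 CPM, a rise of 0.71 (SE 0.17, adjusted p = 0.0025). PAX3, which acts upstream of MITF, fell by 0.50 (SE 0.09, adjusted p = 0.00014), and the nuclear receptor NR2F2 by 0.49 (SE 0.07, adjusted p = 1.2e-05), whereas TFAP2A rose by 0.43 (SE 0.08, adjusted p = 0.00013). Cadherins and EMT factors had 0 higher and 3 lower of 9, so that 33.3% were called, near the 35.9% of all genes. The 3 were ZEB1, which fell by 0.50 (SE 0.10, adjusted p = 0.00049), SNAI2, which fell by 0.21 (SE 0.08, adjusted p = 0.041, lost with DESeq2 at 0.051 and without any 1 of the 6 libraries), and CDH1, E-cadherin, which counted 11 reads over the 3 MITFKO libraries and 0 over those of clone 3.

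Receptors that mark melanoma states were higher in 5 of 17 and lower in 1, MERTK, so that 35.3% were called, beside 35.9% of all genes. The orphan receptor ROR1 was at 13.6, 11.3 and 12.9 CPM and then at 23.9, 22.7 and 22.8 CPM, a rise of 0.88 (SE 0.12, adjusted p = 7.0e-06). NRG1, a ligand of ERBB3 kept in the same list, rose by 0.64 (SE 0.14, adjusted p = 0.00092) and FGFR1 by 0.62 (SE 0.17, adjusted p = 0.0053). The others were ERBB3 and AXL, which was counted in 3 reads over the MITFKO libraries and 62 over clone 3, at most 1.33 CPM in any of these libraries.

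Output genes of the ERK kinase, which is driven by mutant BRAF in these cells, were lower in 10 of 17 and higher in 1, with a median of -0.32. DUSP4, a phosphatase that ERK induces against itself, was at 1266, 1335 and 1313 CPM and then at 783, 799 and 765 CPM, a fall of 0.74 (SE 0.05, adjusted p = 3.6e-10). DUSP6, of the same family, was at 200.5, 198.8 and 203.8 CPM and then at 121, 137 and 131 CPM, a fall of 0.63 (SE 0.06, adjusted p = 5.1e-08). The Ets factor ETV5 fell by 0.59 (SE 0.07), and PHLDA1, DUSP5, SPRED1, SPRED2, ETV4, EGR1 and SPRY4 were lower, with SPRY2 the exception. Of 13 AP-1 factors 4 were lower (MAFF, JUND, MAFG and ATF2) and 1 higher, so that 38.5% were called, near the 35.9% of all genes. MAFF fell by 1.14 (SE 0.07, adjusted p = 2.0e-11), from 434 ± 25 CPM, and MAF rose by 1.16 (SE 0.06, adjusted p = 9.9e-12), from 86.8 ± 4.9 CPM.

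Genes of energy supply were widely higher. Of 24 enzymes and carriers of glycolysis and lactate export, 17 were higher and 2 lower, with a median of 0.49. ENO1, enolase, was at 4726, 4651 and 4905 CPM and then at 7581, 8041 and 7494 CPM, a rise of 0.69 (SE 0.06, adjusted p = 6.9e-09). PGAM1 rose by 0.79 (SE 0.06, adjusted p = 9.4e-10), LDHA, which makes lactate, by 0.61 (SE 0.07, adjusted p = 1.1e-06), and PDK1, which closes the entry of pyruvate to mitochondria, by 1.06 (SE 0.13, adjusted p = 0.00023). The 2 that fell were the glucose transporter SLC2A3 and hexokinase HK2.

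Hypoxia-induced genes were higher in 7 of 22 and lower in 2, with a median of 0.35, so that 40.9% were called, beside 35.9% of all genes. BNIP3, a mitophagy receptor, was at 81.4, 69.7 and 74.0 CPM and then at 175, 222 and 171 CPM, a rise of 1.33 (SE 0.19, adjusted p = 0.0017). Replicate 2 of clone 3 was the highest, and it lay 0.30 above the mean of the other 2 replicates on this list and 0.16 above it on the glycolysis list, as medians over genes on the log2 scale. With replicate 2 of clones 3 and 13 left out, 11 hypoxia genes were higher, and with the 6 libraries of the comparison modelled alone 12 were. VEGFA, the angiogenic factor, which is also a target of ATF4, fell by 0.81 (SE 0.15, adjusted p = 0.0023), and MXI1 by 0.36 (SE 0.08, adjusted p = 0.00059).

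Genes of mitochondrial respiration and translation were more often higher than lower. Complex I of the respiratory chain had 15 of 31 higher and 2 lower (median 0.21), with 8 higher when MITFKO replicate 2 was left out, and complexes II to V had 23 of 34 higher and 1 lower (median 0.23). COX8A, a subunit of cytochrome oxidase, was at 108, 115 and 111 CPM and then at 145, 165 and 162 CPM, a rise of 0.50 (SE 0.06, adjusted p = 1.2e-06). NDUFA4 rose by 0.49 (SE 0.06, adjusted p = 5.8e-07) and UQCR10 of complex III by 0.57 (SE 0.08, adjusted p = 1.2e-05). Mitochondrial ribosomal proteins were higher in 27 of 48 and lower in 4 (MRPS22, MRPS30, MRPL4 and MRPL3), and MRPL51 rose by 0.51 (SE 0.07, adjusted p = 3.9e-06).

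Cytosolic ribosomal proteins were higher in 23 of 42 and lower in 0, by little: their median was 0.17 and the largest rise, of RPL35, was 0.46 (SE 0.06, adjusted p = 2.0e-06). Without MITFKO replicate 1, MITFKO replicate 2 or clone 3 replicate 2 the count was 11, 13 and 12. Enzymes of cholesterol synthesis were higher in 14 of 25, with a median of 0.34, and 1 was lower. IDI1, an isomerase of the isoprenoid steps, was at 38.0, 37.0 and 33.4 CPM and then at 59.2, 55.4 and 58.5 CPM, a rise of 0.68 (SE 0.08, adjusted p = 1.4e-06). PMVK, a kinase of the mevalonate steps, rose by 0.61 (SE 0.10, adjusted p = 4.5e-05).

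Cell division genes were higher almost throughout. Of 34 mitosis genes, 29 were higher and 0 lower, with a median of 0.51, and the groups did not overlap for 33. BIRC5, survivin, was at 55.9, 63.2 and 65.4 CPM in MITFKO and at 130, 128 and 135 CPM in clone 3, a rise of 1.09 (SE 0.08, adjusted p = 4.7e-10). PLK1, a mitotic kinase, was at 85.3, 86.9 and 87.6 CPM and then at 157, 134 and 152 CPM, a rise of 0.77 (SE 0.07, adjusted p = 2.8e-08). The kinase BUB1 of the spindle checkpoint rose by 0.78 (SE 0.07, adjusted p = 3.5e-08). The wild-type library held more of each, with BIRC5 at 149.6, PLK1 at 178 and BUB1 at 211 CPM.

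DNA replication genes were higher in 24 of 36 and lower in 1, RFC4, with a median of 0.38. TK1, thymidine kinase, was at 61.7, 61.3 and 59.8 CPM and then at 122, 118 and 121 CPM, a rise of 0.98 (SE 0.07, adjusted p = 3.5e-10). The flap nuclease FEN1 rose by 0.66 (SE 0.08, adjusted p = 1.3e-06) and thymidylate synthase TYMS by 0.51 (SE 0.08, adjusted p = 1.8e-05). Regulators of G1 split, with 5 higher and 2 lower of 15. CDKN2C and RB1, both brakes on the entry to S phase, rose by 0.74 (SE 0.09) and 0.54 (SE 0.07), CCND3 by 0.59 (SE 0.10), and the other rises were RBL1 and CDK4. The falls were CDKN1A and CDK6, and the 5 became 3 without MITFKO replicate 1, MITFKO replicate 2 or clone 3 replicate 3. In bulk RNA, more dividing cells and more of each mRNA per cell cannot be told apart.

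Matrix genes were more often higher than lower. Of 30 genes of collagens and their processing, 11 were higher and 1 lower, COL4A2, with a median of 0.46. COL9A3 was at 849, 885 and 933 CPM and then at 1601, 1877 and 1834 CPM, a rise of 0.99 (SE 0.07, adjusted p = 8.3e-09). COL11A1, a chain of cartilage collagen, rose by 1.13 (SE 0.08, adjusted p = 5.2e-08) from 194 ± 3.7 CPM, and COL18A1 by 0.68 (SE 0.07, adjusted p = 1.0e-07). Laminins and basement membrane genes had 4 higher (LAMB1, LAMC1, LAMA1 and LAMA4) and 1 lower (LAMB3) of 13. So 38.5% of this list and 40% of the collagen list were called in either direction, near the 35.9% of all genes. LAMB1 rose by 0.64 (SE 0.05, adjusted p = 2.3e-09) from 328 ± 4.1 CPM.

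Matricellular proteins and proteoglycans were higher in 14 of 30 and lower in 3 (SPP1, TIMP1 and CSPG4), the lower count being 5 without clone 3 replicate 3. MATN2, a filament-forming adaptor of the matrix, was at 38.6, 34.3 and 38.1 CPM and then at 137, 160 and 136 CPM, a rise of 1.96 (SE 0.08, adjusted p = 3.3e-14). The proteoglycan LUM, also on the fibroblast marker list, rose by 0.94 (SE 0.08, adjusted p = 4.9e-09). Fibroblast markers as a list lay higher in clone 3 (above), and their part in the matrix results was not tested. SPP1, osteopontin, fell by 0.65 (SE 0.06, adjusted p = 2.4e-08).

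Matrix proteases and their inhibitors split, with 8 higher and 7 lower of 22. MMP15, a membrane-bound protease, was at 226, 241 and 253 CPM and then at 534, 529 and 557 CPM, a rise of 1.17 (SE 0.06, adjusted p = 1.0e-12). The collagenase MMP1 was at 104, 109 and 112 CPM and then at 57.8, 64.7 and 57.5 CPM, a fall of 0.85 (SE 0.07, adjusted p = 8.4e-09). PLAUR, the urokinase receptor, fell by 0.74 (SE 0.06, adjusted p = 1.3e-08).

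Adhesion genes split and contractile genes were mostly higher. Integrins and focal adhesion genes held 11 higher and 7 lower of 30: ITGA4 rose by 0.79 (SE 0.06, adjusted p = 1.5e-09) and the adaptor TNS3 by 0.77 (SE 0.06, adjusted p = 3.1e-09), whereas ITGA1, a collagen receptor chain, fell by 0.85 (SE 0.08, adjusted p = 8.1e-08) and LPP by 0.79 (SE 0.06, adjusted p = 4.3e-09). Actin contractile genes were higher in 11 of 20, or in 7 without MITFKO replicate 1, and lower in 1, TPM4. MYL6, a myosin light chain, was at 135, 146 and 141 CPM and then at 242, 241 and 257 CPM, a rise of 0.81 (SE 0.06, adjusted p = 6.0e-10). Tropomyosin TPM1 rose by 0.93 (SE 0.11, adjusted p = 1.0e-06). Targets of TGF-beta and YAP were higher in 12 of 27 and lower in 4, among them WWTR1, SKIL and LATS2, and ID3, an inhibitor of helix-loop-helix factors, rose by 0.73 (SE 0.06, adjusted p = 1.8e-09). WWTR1, which encodes the YAP relative TAZ, fell by 0.67 (SE 0.05, adjusted p = 3.1e-09) from 887 ± 22 CPM.

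Secreted signals changed gene by gene. IL24, a cytokine of the interleukin 10 family, was at 107, 121 and 110 CPM in MITFKO and at 23.2, 20.3 and 22.02 CPM in clone 3, a fall of 2.36 (SE 0.09, adjusted p = 3.2e-14). Of 16 cytokines 5 were lower (GDF15, IL24, CSF2, SPP1 and LIF) and 4 higher (CCL2, IL11, CXCL1 and CXCL8). LIF fell by 0.55 (SE 0.08, adjusted p = 3.1e-05) from 1132 ± 53 CPM, and the neutrophil attractant CXCL8 went from 123, 132 and 109 CPM to 202, 183 and 219 CPM. In the VEGF and semaphorin group 6 of 24 were higher and 5 lower. SEMA3C, a secreted guidance cue, rose by 1.60 (SE 0.07, adjusted p = 3.1e-13) from 37.1 ± 1.5 CPM, and its receptor family member PLXNA1 fell by 0.84 (SE 0.06, adjusted p = 3.6e-10). IGFBP7, an insulin-like growth factor binding protein, rose by 1.46 (SE 0.10, adjusted p = 2.8e-09). Class I antigen presentation and interferon genes had 1 higher (IFIT3) and 4 lower (NLRC5, IRF7, IRF2 and STAT2, whose call was lost with DESeq2 and without most single libraries) of 24, beside 18.2% and 17.6% of all genes, and of 5 class II genes HLA-DRB1 was higher.

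Clone 13 shares the MITFKO libraries with this comparison, so its own changes are set beside those of clone 3 without counting them as a repeat. Against MITFKO, 40.7% of genes were called in clone 13 (20.5% higher and 20.2% lower), with TFE3 at 45.7 ± 2.9 CPM. The direct comparison of clone 3 with clone 13 called 27.6% of genes, 13.4% higher in clone 3 and 14.3% lower. Its contrast leaves MITFKO out, although the MITFKO libraries took part in the filter, the scaling and the estimate of spread. ATF4 stress factors were lower in 16 of 18 in clone 13 too, with a median of -1.35, and in the direct comparison 8 members were higher in clone 3 and 1, PPP1R15A, was lower. TRIB3 did not pass the direct test, with a difference of 0.02 (SE 0.06), while DDIT3 was higher in clone 3 by 0.36 (SE 0.09, adjusted p = 0.0050).

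Cell division separated the clones. Mitosis genes were higher in clone 3 than in clone 13 in 24 of 34 and lower in 0, and clone 13 itself had 8 of 34 higher than MITFKO with a median of 0.11. BIRC5 was at 96.4, 77.0 and 87.6 CPM in clone 13, below every clone 3 library, and the difference was 0.59 (SE 0.08, adjusted p = 4.0e-06). DNA replication genes were higher in clone 3 in 15 of 36 and lower in 0. Several lists differed the other way: glycolysis was lower in clone 3 than in clone 13 in 19 of 24, cytosolic ribosomal proteins in 34 of 42, ER chaperones in 11 of 27, lysosomal hydrolases in 18 of 39 and collagens in 14 of 30. Mitochondrial ribosomal proteins were higher in clone 3 in 13 of 48 and lower in 3, V-ATPase subunits in 8 and 2 of 22, and genes of cholesterol synthesis in 6 and 0 of 25. Against MITFKO, clone 13 itself had 8 V-ATPase subunits higher and 6 lower, beside 11 and 0 in clone 3. It had 15 mitochondrial ribosomal proteins higher and 7 lower, and 12 genes of cholesterol synthesis higher and 3 lower.

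The largest differences between the clones are given for genes with a mean of at least 5 CPM in either clone, no overlap of their libraries and a call against MITFKO as well. VAMP5, a vesicle fusion protein, was at 15.5, 19.1 and 15.98 CPM in clone 3 and at 0.28, 0.15 and 0.33 CPM in clone 13, with MITFKO between at 8.06 ± 1.5 CPM, a difference of 6.03 (adjusted p = 2.1e-12). SLC5A4 was higher in clone 3 by 3.07 (SE 0.15), the vitamin B12 carrier TCN1 by 2.43 (SE 0.13), NCKAP5 by 2.35 (SE 0.22) and IL7R by 2.12 (SE 0.26). C4orf3 was at 1.74, 1.44 and 2.13 CPM in clone 3 and at 23.4, 32.6 and 20.6 CPM in clone 13, a difference of -3.85 (adjusted p = 1.7e-10). TFE3, for which clone 3 was chosen, differed by -2.29. FGF1, a fibroblast growth factor, was lower in clone 3 by 2.07 on the log2 scale, the ephrin receptor EPHB1 by 1.85 and COL5A1 by 1.82.

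**Figure D3:**
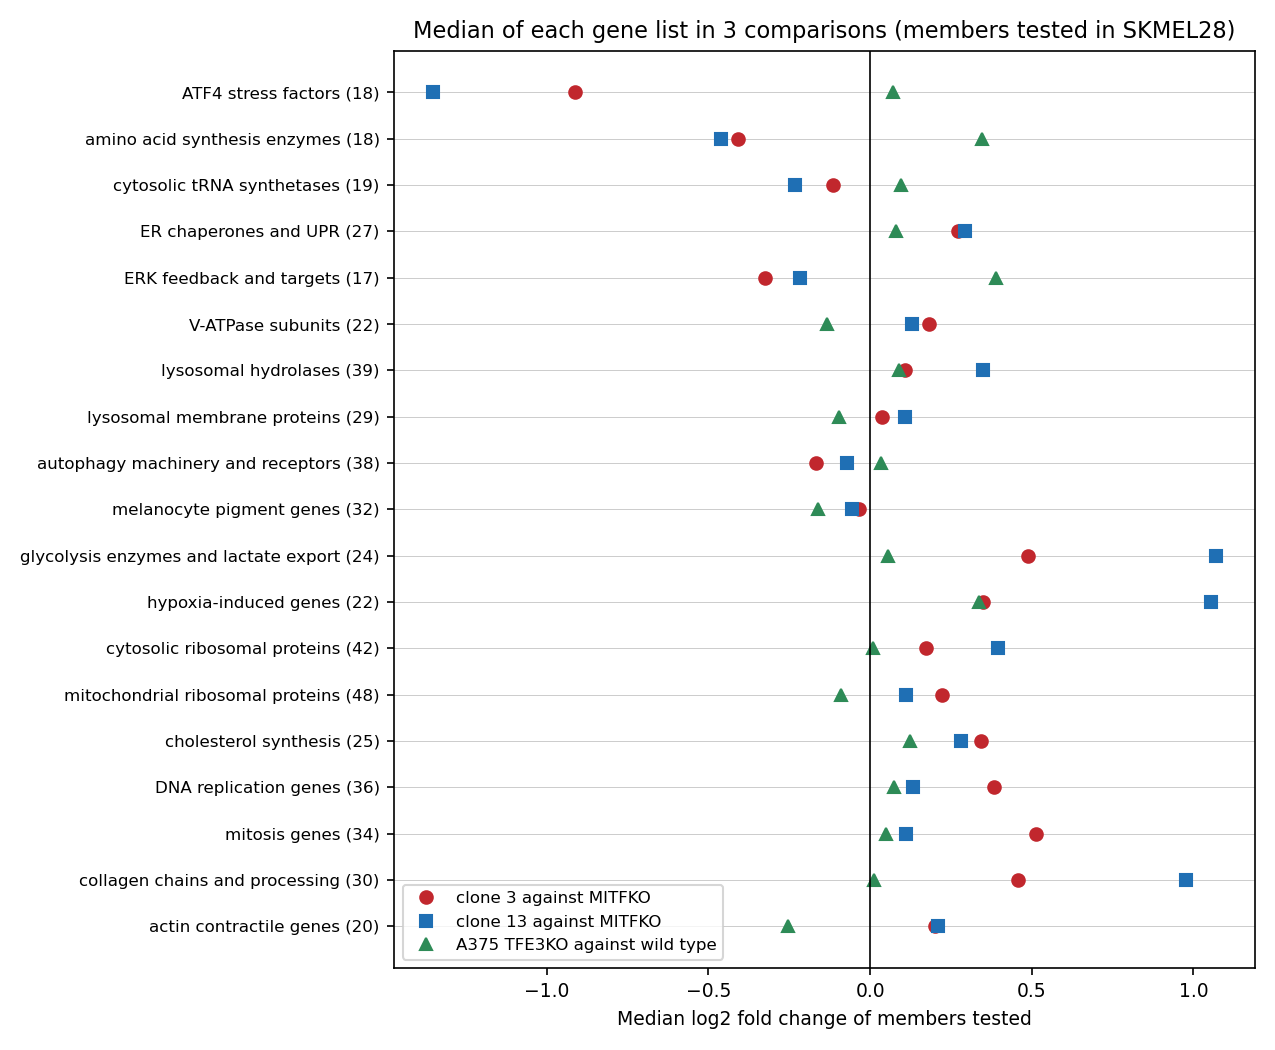
Median log2 fold change over the tested members of 19 gene lists in clone 3 against MITFKO (circles), clone 13 against MITFKO (squares, sharing the MITFKO libraries) and A375 TFE3KO against wild type (triangles, sharing no library). The number tested in SKMEL28 stands in brackets. ATF4 stress factors lie at -0.91 in clone 3, -1.35 in clone 13 and 0.07 in A375, and mitosis genes at 0.51, 0.11 and 0.05.

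A375 TFE3KO offers a comparison with no library in common, in a line whose MITF gene was not edited and whose medium differed. There 32.2% of 15093 genes were called against A375 wild type, 16.3% higher and 15.9% lower, and TFE3 was lower by 3.37 on the log2 scale. Of 14061 genes tested in both lines, 2098 were called in both, which is 40.2% of the 5214 called in clone 3 and 46.3% of the 4536 called in A375. Of these 2098 genes 602 were higher in both and 470 lower in both, whereas 481 were higher in clone 3 and lower in A375 and 545 the reverse. Thus 51.1% had the same direction, beside 49.1% over all genes tested in both. A joint model tested the difference between the effects directly and called it for 36.7% of genes. It was called for all 1026 genes called in opposite directions, which that selection all but ensures.

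The stress genes were part of that difference. ATF4 stress factors in A375 were higher in 9 and lower in 7 of 18, and amino acid enzymes higher in 12 and lower in 1 of 18. ASNS rose in A375 by 1.51, and its effect in clone 3 was lower by 3.47 on the log2 scale (adjusted p = 1.8e-07). ERK output genes were higher in 11 of 17 in A375 and lower in 2, and DUSP6 rose there by 0.50, with a difference of effects of -1.13 (adjusted p = 2.1e-12). V-ATPase subunits were lower in 6 and higher in 3 of 22 in A375. MITF, which rose in clone 3, fell in A375 by 0.95, from 34.8 ± 4.0 to 17.99 ± 0.79 CPM.

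Other genes moved the same way in both lines. Among the largest shared falls were IL24, lower in A375 by 1.89 (adjusted p = 5.6e-16), GDF15 by 1.75, NRROS, which holds latent TGF-beta, by 2.07 and the exchange factor ARHGEF4 by 1.15. In clone 3 NRROS went from 29.4, 29.7 and 32.2 CPM to 11.4, 8.48 and 7.59 CPM and ARHGEF4 from 9.70 ± 0.63 to 3.37 ± 0.80 CPM. Shared rises included FLT1, a VEGF receptor, by 1.47 (SE 0.20) in clone 3 and 3.04 in A375, MOXD1 by 1.40 and 1.37, FREM1 by 1.32 and 4.81, DNAH9 by 1.22 and 2.37, and HAPLN1 by 3.22 and 1.19.

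Part of the lower genes lay side by side on chromosomes. When tested genes were put in chromosome order (RefSeq, GRCh38, order only), 8 runs of at least 31 genes had a running median of 30 neighbours at or below -0.2 in clone 3, and no run of that length reached 0.2. The largest runs were on chromosome 3, from PLA1A to TIPARP-AS1 (177 genes, median -0.39, 97 lower and 8 higher) and from NMD3 to LMLN (146 genes, median -0.40, 85 lower and 6 higher), and on chromosome 18 from TUBB8B to EPG5 (122 genes, median -0.38, 58 lower and 3 higher). The others were 2 on chromosome 2, from CARF to ERBB4 and from C2orf72 to GPC1, and 3 on chromosome 19, from SGTA to YJU2, from GPR108 to SHFL and from PPAN to IL27RA.

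The runs were defined by the values of clone 3. Those of chromosome 3 had medians of -0.42 and -0.42 in clone 13 and of -0.06 and -0.02 in A375. On chromosome 19 the clones parted: the 3 runs had medians of -0.21, -0.28 and -0.28 in clone 3 and of 0.24, 0.29 and 0.18 in clone 13. In A375 these 3 runs had medians of 0.04, 0.04 and 0.04. On chromosome 18 the median was -0.11 in clone 13 and -0.19 in A375. The running median of clone 13 changed along that run, from 0.04 at TYMS to -0.43 at ROCK1. The 2 runs of chromosome 2 had medians of -0.33 and -0.20 in clone 13 and of 0.04 and 0.07 in A375. Together the runs held 716 genes, of which 359 were lower and 34 higher, and outside them 2631 genes were higher and 2216 lower of 13889. Among genes named above LAMP3, ETV5, LPP, NRROS, SKIL, RFC4 and SOX2 lie in the second chromosome 3 run, WWTR1, PLXNA1, EPHB1, MRPS22 and MRPL3 in the first, MLPH in the second of chromosome 2, NPC1, TYMS and LAMA1 in that of chromosome 18, and MAN2B1, ATG4D and MRPL4 in the last of chromosome 19. LAMP3 fell by 3.67 where the median of its neighbours was -0.34, and SOX2, TYMS and LAMA1 rose inside runs that were lower. DNA copy number was not measured, and its part in these runs was not tested. Without the genes of the runs, autophagy held 14 lower and 5 higher of 35, lysosomal membrane proteins 1 lower and 10 higher of 26, mitochondrial ribosomal proteins 1 lower of 44, DNA replication genes 0 of 33, complex I 0 of 26 and targets of TGF-beta and YAP 2 of 24. All 18 ATF4 stress factors and 22 V-ATPase subunits lay outside them.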

How the data were processed

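Total RNA of cultured melanoma cells was sequenced, and 1 table of raw read counts per gene symbol was deposited for each library. Per the submitters' processing notes, the authors used STAR, featureCounts and DESeq2 with the build hg19, with no versions. The annotation release, strand setting and treatment of multi-mapped reads were not given in the sources used here, so members of near-identical families (ribosomal proteins, histones, HLA genes) and overlapping genes are uncertain.

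The 10 SKMEL28 libraries entered 1 model by group in edgeR 4.0.16 (R 4.3.3, limma 3.58.1), with TMM scaling, filterByExpr, the robust quasi-likelihood F-test and Benjamini-Hochberg adjustment. A model of 15 libraries, without the SKMEL28 wild type, tested clone 3 against A375. The prior count of fitted fold changes was 0.125. The labels do not say that a flask number marks a shared day or batch, so no block was used. Deviations of same-numbered MITFKO and clone 3 libraries correlated at -0.021, -0.024 and -0.020. Those of same-numbered clone 3 and clone 13 libraries correlated weakly, at 0.048, 0.099 and 0.021, beside -0.069 to 0.027 for other pairs of these clones. Of 28278 symbols 26998 matched RefSeq directly and 27656 with synonyms, and coordinates of promoters are those of GRCh38, not of hg19.

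The named genes are the MiT/TFE factors, the 10 largest rises and falls with a mean of at least 5 CPM and no overlap, up to 4 called members of each of 46 lists (smallest adjusted p, largest change, then adjusted p), the 5 largest differences each way between the clones and the 5 largest shared with A375 each way. Other names complete short counts or sets and were chosen after their values were seen. Some genes that the rule names are not reported here. The members and lists were chosen with earlier results of these data known. Alternatives were other size factors, DESeq2 1.42.0, no filter on low counts, 6 libraries alone, a replicate block and leaving out each library. The testing code was checked on simulated counts.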

Additional observations from a re-analysis of the deposited data

Results flagged for a closer look

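Of the genes named by the rule, 40 were called in opposite directions in clone 3 and in A375 TFE3KO, with a called difference between the effects in the joint edgeR model. Opposite calls all but ensure a called difference, so it is not separate evidence. The 23 that moved by at least 0.5 on the log2 scale in each line are given here as the effect in clone 3 minus that in A375.

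The genes whose effect was lower in clone 3 include several of amino acid supply. The difference was -3.47 for ASNS, -2.91 for ALDH1L2, -1.88 for CTH, -1.96 for the cystine importer SLC7A11, -1.53 for the amino acid transporter SLC43A1 and -1.21 for the tRNA synthetase GARS1. It was -6.49 for PRR9, which was at 1.19 CPM or less in every A375 library, -1.86 for ITGA1, -1.76 for FGF1, -1.47 for the insulin receptor INSR, -1.38 for WWTR1, -1.13 for DUSP6 and -1.12 for ETV5. INSR lies in a run of lower neighbours on chromosome 19, and WWTR1 and ETV5 lie in those of chromosome 3.

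The genes whose effect was higher in clone 3 include matrix and receptor genes. The difference was 6.96 for LAMA1, a laminin chain that went from 7.71 to 0.07 CPM on average in A375. It was 3.95 for IL7R, 3.38 for CCN1, 3.01 for NRG1, 2.90 for LYPD1, 2.42 for COL5A1, 1.59 for MITF, 1.47 for ROR1, 1.39 for IFIT3 and 1.30 for TNS3.

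Between the SKMEL28 clones, 7 named genes were called in opposite directions against MITFKO. Clone 3 was higher than clone 13 by 6.03 for VAMP5, 2.43 for TCN1 and 2.35 for NCKAP5, and the difference was -3.85 for C4orf3, -2.07 for FGF1, -1.85 for EPHB1 and -1.45 for ITGA1. The runs of lower neighbours on chromosome 3 hold EPHB1. No group held 4 or more samples, so single libraries were not tested for standing apart.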

How the results depend on the processing

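The counts of genes called stayed within 1.5 times their main values under every alternative run, no called gene changed sign, and the median of all genes shifted by at most 0.01. With each library left out in turn, 2019 to 2288 genes were higher in clone 3 than in MITFKO, 2060 to 2206 lower and 441 to 513 at least doubled or reduced to 50% or less. Against clone 13, 1354 to 1828 were higher and 1578 to 2118 lower. With the 6 libraries alone 3153 were higher and 3106 lower, with DESeq2 2674 and 2472, and without replicate 2 of both clones, an alternative chosen after seeing the data, 3033 and 2892. A replicate block over same-numbered flasks gave 2797 higher and 2778 lower, with 5168 of the 5240 calls shared. Against clone 13 the block gave 2108 higher and 2302 lower, beside 1952 and 2084 without it. Of 1980 values for 165 named genes, 1967 kept direction and call. The other 13 belong to SNAI2 and STAT2, which lost their calls (adjusted p 0.051 to 0.14 and 0.060 to 0.24) with DESeq2 and with most single libraries left out. Limits are that clone 3 is 1 clone, that flasks are not independent edits, that only 1 wild-type library was analysed, and that genes of few counts, such as CDH1 and AXL, have fold changes set partly by the prior count.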

Other observations

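Of 11 tested replication histones, whose mRNAs mostly lack poly(A) tails, 2 were higher and 0 lower, with a median of 0.48. The share called higher, 18.2%, was that of all genes tested (18.2%), and 35.9% of all genes were called in either direction. From this list 2 symbols that fit no single gene were left out. H2AX, the variant phosphorylated at DNA breaks, was at 32.6, 29.5 and 31.2 CPM in MITFKO and at 46.7, 50.5 and 54.2 CPM in clone 3, a rise of 0.70 (SE 0.17, edgeR adjusted p = 0.0089), and H2BC12 rose by 0.46 (SE 0.11, adjusted p = 0.0018).

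Of 10 genes of insulin-like growth factor binding and signalling, 3 were higher (IGFBP7, IGFBP5 and IGFBP2) and 1 lower (INSR). So 40% were called, near the 35.9% of all genes. IGFBP5 was at 6.34, 5.53 and 6.12 CPM and then at 9.59, 12.8 and 12.2 CPM, a rise of 0.94 (SE 0.15, adjusted p = 5.0e-05). The insulin receptor INSR was at 28.1, 26.5 and 28.7 CPM and then at 18.5, 18.5 and 19.5 CPM, a fall of 0.56 (SE 0.11, adjusted p = 0.00023). INSR lies in the chromosome 19 run from GPR108 to SHFL, and the median of its neighbours was -0.32. Outside the runs 3 of 9 list members were higher and 0 lower. IGFBP3, the most abundant of the list, had 2098, 1972 and 2125 CPM and then 1777, 2641 and 1660 CPM, with replicate 2 of clone 3 above and the other replicates below every MITFKO library.

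The M-box TCATGTG, a site bound by MITF and its relatives, was searched on both strands of the same promoter windows. It stood in 1.75% of the promoters of tested genes, in 1.34% of those of genes higher in clone 3 and in 1.72% of those of genes lower. It was in 3 of 7 promoters of the higher lysosomal membrane proteins and in 0 of 13 of the lower ATF4 stress factors. Higher V-ATPase subunits and higher hydrolases held it in 0 of 9 promoters each, and lower hydrolases in 1 of 4. Autophagy genes held it in 0 of 5 higher and 1 of 13 lower promoters.

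By whole chromosome, the median change in clone 3 was lowest on chromosome 18 (-0.21), 19 (-0.15) and 3 (-0.14) and lay between -0.07 and 0.08 on every other chromosome. In clone 13 the lowest medians were on chromosome 4 (-0.38), where clone 3 had -0.02, and chromosome 2 (-0.19).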
